A study of Mus musculus with 12 samples.

Results

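Interferon-stimulated genes were followed in the lactating mammary gland of mice with and without butyrophilin 1a1 (Btn1a1). They were chosen as a list of 47 genes known to be induced by interferons, and the 45 of them found by symbol among the 11834 genes of the deposited table are described here. Mx1 and Oas3 were not analysed here. PolyA RNA had been sequenced from 1 gland library per mouse, from 5 wild-type (WT) C57BL/6 mice and from 7 C57BL/6 mice of genotype Btn1a1-/- (KO). All 12 mice were in lactation 1. The WT glands were taken on day 10 (replicates 1, 4 and 5), day 9 (replicate 2) and day 11 (replicate 3). The KO glands were taken on day 10 (replicates 1, 2, 5, 6 and 7), day 8 (replicate 3) and day 11 (replicate 4). Per the labels, mutant mice came from heterozygous pairs kept apart from the WT breeding cages, and either of 2 diets was fed without a record for each mouse, so genotype, line and diet cannot be told apart.

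Interferons are cytokines that a cell releases when it senses viral nucleic acid or other danger, and that neighbouring cells read through surface receptors. Type I interferons and interferon lambda act through a complex holding Stat2 and Irf9 that binds the interferon-stimulated response element (ISRE) of target promoters. Interferon gamma acts mainly at the gamma-activated site (GAS), and it induces guanylate-binding proteins, immunity-related GTPases, the immunoproteasome and Irf1 strongly. Many targets answer to either class, and many are kept at a low tonic level without infection. In the gland they can be expressed by epithelial, stromal and immune cells alike, and in whole tissue a change in the number of cells of a type and a change in RNA per cell cannot be told apart.

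The promoters of several of the genes described below are shown because their response elements are the feature these genes are known for. The RefSeq promoter table (GRCm38.p6, the same assembly as mm10) held 44 promoters of 36 of the 45 genes. Dhx58, Zbp1, Usp18, Oas2, Mx2, Parp9, Parp14, Ifi27 and Rtp4 had no entry. Capitals mark every match to the ISRE core, GAAA then any 2 bases then GAAA, on either strand (TTTC, any 2 bases, TTTC where the match is on the other strand). Each window is written 5′ to 3′ on the strand of the gene, and all lie within the 250 bases before the annotated start. The windows are those of Isg15 (chr4:156200850-156200921, minus strand), Oas1a (chr5:120907526-120907570, minus strand), Ifit1 (chr19:34640760-34640838, plus strand), Rsad2 (chr12:26456538-26456597, minus strand), Gbp7 (chr3:142530258-142530317, plus strand) and Igtp (chr11:58199497-58199555, plus strand). The first 4 genes were called higher in KO glands and the last 2 were not.
Isg15: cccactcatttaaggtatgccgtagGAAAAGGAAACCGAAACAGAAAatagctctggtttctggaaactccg
Oas1a: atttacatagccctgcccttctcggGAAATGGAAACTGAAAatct
Ifit1: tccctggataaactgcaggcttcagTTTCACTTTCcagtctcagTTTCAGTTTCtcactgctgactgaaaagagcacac
Rsad2: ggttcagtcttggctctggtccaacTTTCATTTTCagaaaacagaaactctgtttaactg
Gbp7: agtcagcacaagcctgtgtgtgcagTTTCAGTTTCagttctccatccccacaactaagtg
Igtp: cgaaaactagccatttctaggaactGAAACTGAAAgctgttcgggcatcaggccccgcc

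Isg15 held 3 overlapping matches, Oas1a 2 that overlap, Ifit1 2 apart from each other, and Rsad2, Gbp7 and Igtp 1 each. Of the 44 promoters, 13 held the ISRE core (29.5%), against 978 of all 32851 promoters in the table (2.98%). The GAS core, TTC then any 3 bases then GAA, which reads the same on both strands, was in 9 of the 44 (20.5%) against 2306 of 32851 (7.02%), and 4 held both cores. In Bst2 the GAS match overlapped an ISRE match. Of the GTPase genes, 5 of 6 held an ISRE core, and of the 7 called genes with a promoter entry, 4 did. The called genes Irf7, Ifitm3 and Xaf1 did not have these letters in this window. These are matches of letters and were not tested for binding.

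The deposited values are log2 CPM, the log2 of the counts of a gene per 1 M counts of its library (M, mega). CPM values are not divided by gene length, so levels are compared here between mice and never between genes. Btn1a1 had 11.07 ± 0.09 log2 CPM in WT (SD, n = 5) and 5.63 ± 0.30 in KO (SD, n = 7), with no overlap between the genotypes. The depth behind the values was estimated roughly at 17.1 to 30.4 M reads in WT and 23.2 to 34.7 M reads in KO, so that 0 log2 CPM stands for about 17 to 35 reads. WT replicate 4 was the shallowest library. For the tissue label, the CPM sum of 8 luminal secretory markers, all measured and Btn1a1 among them, ran from 307790 to 309148 in WT and from 278658 to 318633 in KO. Csn2, Wap and Csn3 give most of this sum. Csn2 and Wap had 1 value in every library and Csn3 1 value in every WT library, because the deposited values are quantile-normalized. The evenness of the sum was thus fixed beforehand and does not compare the secretory content of the mice. The libraries of WT replicate 4 and KO replicate 4 stood apart for the genes described here, and the calls that changed without both are named below.

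Several interferon-stimulated genes were higher in KO glands, while 37 of the 45 were not called and the KO mice were widely spread. By limma at an adjusted p under 0.05, 8 of the 45 passed as higher (17.8%) and 0 as lower, while 9.36% of all 11834 genes were called in either direction, 4.84% as higher in KO and 4.52% as lower. The 8 were Irf7, Isg15, Oas1a, Xaf1, Rsad2, Ifit1, Rtp4 and Ifitm3. The difference between KO and WT was above 0 for 40 of the 45 (44.6% of all genes), with a median of 0.42 on the log2 scale against -0.03 over all genes, and 25 had an unadjusted p under 0.05 and a higher level (12.2% of all genes). The list was chosen with earlier results of these data known, so its count is not independent evidence of its direction. The authors' deposited table has 6 of the 45 past the same threshold as higher, against 4.55% of all its genes. The number called was 3 without WT replicate 5 (3.12% of all genes were then higher). It was 4 without WT replicate 3 (3.40% of all genes) or KO replicate 1 (3.19%). It was 5 without WT replicate 1 (2.67% of all genes), KO replicate 3 (4.86%) or KO replicate 4 (4.10%). The number rose to 14 without KO replicate 6 (5.66% of all genes). It was 6 without WT replicate 4 and KO replicate 4 together (3.12% of all genes). Irf7, Isg15, Oas1a and Xaf1 kept their calls there, Ifit1 (adjusted p = 0.0549), Rsad2 (0.0543), Rtp4 (0.0778) and Ifitm3 (0.0963) lost theirs, and Eif2ak2 (0.0470) and Gbp3 (0.0316) gained one. With day 10 libraries alone, 3 WT against 5 KO, Irf7 was the sole gene of the 45 called, while 1.39% of all genes were called higher, and the median difference was 0.21.

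**Figure D1:**
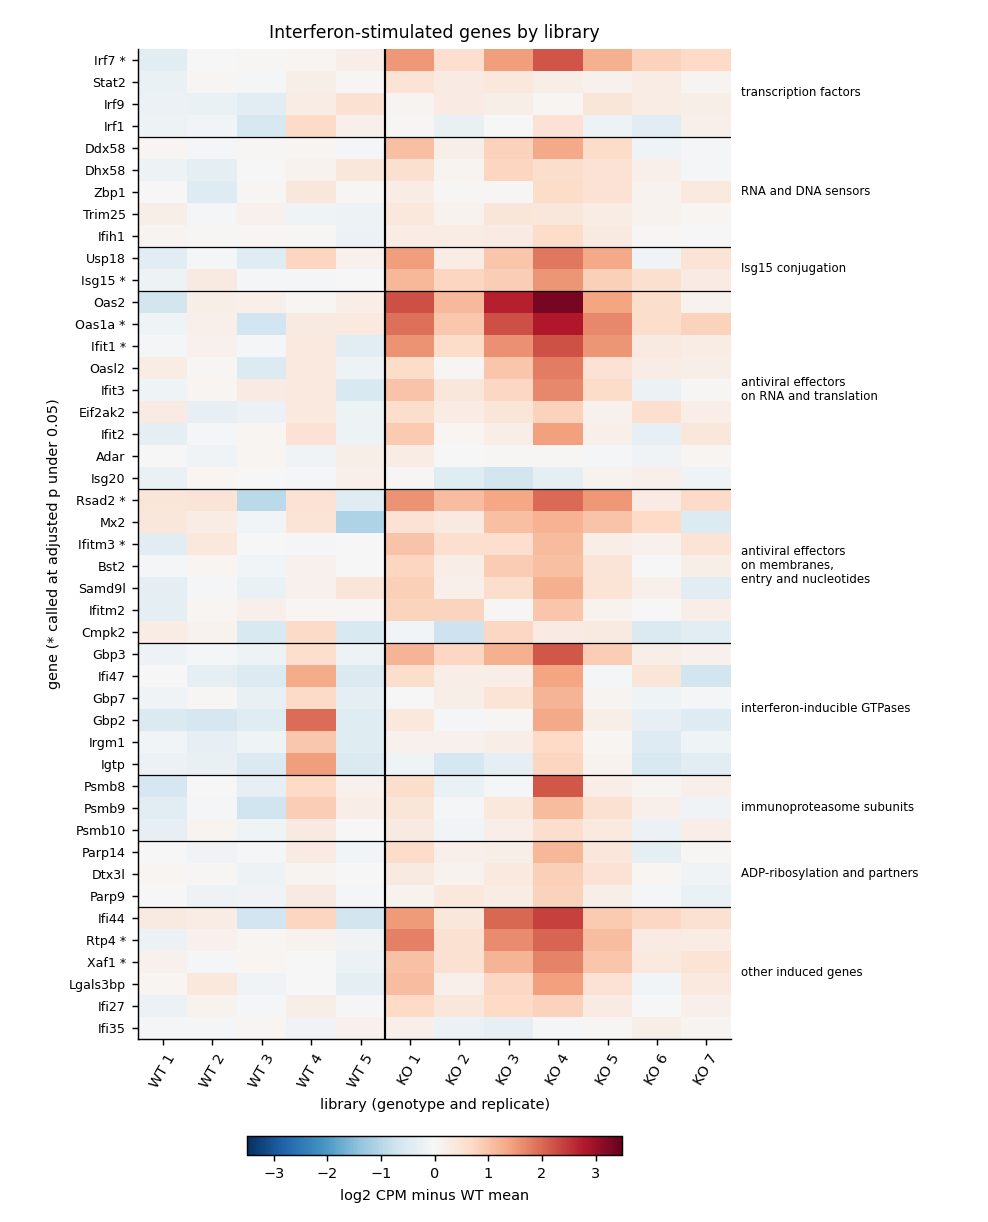
Heat map of the 45 genes (rows, grouped by role) in the 12 libraries (columns), with colour giving log2 CPM minus the WT mean of that gene. KO replicates 1, 3, 4 and 5 are the reddest columns for the antiviral genes, and WT replicate 4 is red in the rows of the GTPases and the immunoproteasome.

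Of the 4 transcription factors, Irf7 was called, where 4.84% of all genes were called higher. Irf7, which drives the genes of type I interferons and is itself induced by them, had 1.39, 1.77, 1.81, 1.84 and 2.00 log2 CPM in WT replicates 1 to 5, and 2.34 (lowest), 3.00 (median) and 3.95 (highest, replicate 4) in KO. Every KO library lay above every WT library. The difference was 1.22 on the log2 scale (SE 0.24, adjusted p = 0.00903 by limma), a level 2.33-fold higher, and its call held whichever library was left out (adjusted p up to 0.0308). Irf7 lies at chr7:141262706-141266481 (mm10) and has annotated exons that overlap those of Phrf1 on the opposite strand. The sources used here do not say whether counting used strand, so reads of both genes may not be told apart. Stat2, a partner in the ISRE-binding complex, differed by 0.26 (SE 0.09, adjusted p = 0.0734), and Irf9, the DNA-binding part of that complex, by 0.22 (SE 0.13, adjusted p = 0.306). Irf1, an early target of interferon gamma, had 3.08 ± 0.46 in WT (SD, n = 5) and 3.07 ± 0.29 in KO (SD, n = 7), with a 95% interval of the difference from -0.42 to 0.39. The sign of the Irf1 difference changed with 10 of the alternative settings, and it was called in none of them.

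None of the 5 nucleic acid sensors and their regulators was called, where 4.84% of all genes were called higher. At that share 5 genes are too few for a count of 0 to set them apart from other genes. All 5 differences were above 0 (44.6% of all genes), and 4 had an unadjusted p under 0.05 and a higher level (12.2% of all genes). Ddx58, which encodes the RNA helicase RIG-I, ran from 2.22 to 2.37 log2 CPM in the 5 WT libraries, the narrowest WT range of these sensors, and from 2.16 to 3.62 in KO. KO replicates 1 to 5 lay above all WT libraries, KO replicate 7 lay among them and KO replicate 6 lay below them. Its difference was 0.55 (SE 0.22, adjusted p = 0.136). Ifih1, the RNA sensor MDA5, differed by 0.25 (SE 0.10, adjusted p = 0.134), Dhx58, a related helicase, by 0.38 (SE 0.18, adjusted p = 0.181), and Trim25, a ubiquitin ligase of the RIG-I pathway, by 0.26 (SE 0.09, adjusted p = 0.0875). Zbp1, a sensor of Z-form nucleic acid that can start cell death, differed by 0.28 with an interval from -0.04 to 0.60.

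Isg15, a ubiquitin-like protein that is attached to other proteins during the interferon response, was called. It had 0.20, 0.70, 0.31, 0.35 and 0.36 log2 CPM in WT replicates 1 to 5, and 0.66, 1.21 and 1.92 as the lowest, median and highest KO values. In 6 of 7 KO mice Isg15 lay above every WT mouse, and KO replicate 7 lay just below WT replicate 2. The difference was 0.86 (SE 0.20, adjusted p = 0.0162 by limma), and it stayed called whichever library was left out (adjusted p up to 0.0462). The gene is small, at chr4:156199424-156200818 with 2 annotated exons. Usp18, the protease that removes Isg15 and restrains interferon receptor signalling, differed by a like amount, 0.89, but with a larger error (SE 0.33, adjusted p = 0.0996, or 0.0335 without KO replicate 6).

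Of 9 antiviral genes that act on RNA or translation, Oas1a and Ifit1 were called, where 4.84% of all genes were called higher. Oas1a, a synthetase of the 2-5A signal that activates RNase L, had -0.52 as its lowest WT value (replicate 3) and 0.48 as its highest (replicate 5), with 0.31 and 0.44 in replicates 2 and 4 and about 0 in replicate 1. Its KO values were 0.77 at the lowest (replicate 6), 1.82 at the median and 2.95 at the highest (replicate 4), so the groups did not overlap. The difference of 1.58 (SE 0.35, adjusted p = 0.0162) is a level 2.99-fold higher, and it was called whichever library was left out (adjusted p up to 0.0445). Oas1a has close paralogs that can share its reads, so its value may hold part of theirs.

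Ifit1, which binds foreign RNA caps, had 0.47, 0.66, 0.45, 0.87 and 0.12 log2 CPM in the 5 WT replicates and 0.76, 2.06 and 2.73 as lowest, median and highest KO values. KO replicates 1 to 5 lay above all WT mice, while KO replicates 6 and 7 lay within the WT range. Its difference was 1.16 (SE 0.32, adjusted p = 0.0359). That call ended without any 1 of WT replicates 1, 2, 3 and 5 or KO replicates 1, 3 and 5 (adjusted p from 0.0536 to 0.0882), and in the authors' deposited table Ifit1 is not past the threshold either (adjusted p 0.0558).

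Oas2, a larger synthetase of the same signal, had the largest difference of the 45 genes and was the nearest outside the threshold. It had -0.59, 0.24, 0.21, 0.08 and 0.27 log2 CPM in WT replicates 1 to 5 and 0.17, 1.44 and 3.37 as lowest, median and highest KO values. KO replicate 7, at 0.17, was the sole KO library below the highest WT value. The difference was 1.66 (SE 0.49, adjusted p = 0.0509, or 0.0317 without KO replicate 6 and 0.0226 without KO replicate 7). Eif2ak2, the double-stranded RNA kinase PKR, had 3.82, 3.26, 3.34, 3.89 and 3.37 in WT and 3.70, 3.95 and 4.34 as lowest, median and highest KO values, and 4 of 7 KO mice lay above all WT mice. It differed by 0.44 (SE 0.14, adjusted p = 0.0578), and it was called when WT replicate 4 (0.0353) or KO replicate 5 (0.0402) was left out. Ifit3 (0.61), Oasl2 (0.63) and Ifit2 (0.42) were not called. Isg20, an exonuclease, and Adar, an RNA editing enzyme, had differences of -0.17 (interval from -0.46 to 0.11) and 0.03 (interval from -0.14 to 0.20).

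Of 7 measured antiviral genes that act at membranes, on entry or on nucleotides, Rsad2 and Ifitm3 were called (4.84% of all genes were called higher). Rsad2 encodes viperin, which makes a chain-terminating nucleotide, and had 1.86, 1.88, 0.50, 1.93 and 0.99 log2 CPM in WT replicates 1 to 5. Its KO values were 1.72, 2.79 and 3.40 at the lowest, median and highest, and 6 of 7 lay above all WT mice, with KO replicate 6 inside the WT range. The difference was 1.21 (SE 0.32, adjusted p = 0.0321). Its call ended without any 1 of WT replicates 3 and 5 or KO replicates 1, 2 and 4 (adjusted p from 0.0530 to 0.0817). Cmpk2, which encodes a nucleotide kinase that works beside viperin, is the neighbouring gene, and both lie within 37.1 kb on chromosome 12. It did not share the difference of Rsad2: Cmpk2 had 4.79 ± 0.52 in WT (SD, n = 5) and 4.74 ± 0.52 in KO (SD, n = 7), with an interval from -0.66 to 0.55. The difference between these neighbours was not tested.

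Ifitm3, a membrane protein that blocks virus entry, had 2.60, 3.33, 2.97, 2.91 and 2.98 log2 CPM in WT and 3.11, 3.55 and 4.06 as lowest, median and highest KO values. It was the called gene nearest to the threshold, at a difference of 0.59 (SE 0.17, adjusted p = 0.0380). Its call ended without any 1 of 9 libraries, all but WT replicate 2 and KO replicates 5 and 6 (adjusted p from 0.0523 to 0.103). Ifitm2, its close paralog on chromosome 7, differed by 0.42 (SE 0.18, adjusted p = 0.150), and reads shared by these paralogs may be split between them. Bst2, the tetherin that holds virus particles at the cell surface, ran from 3.65 to 3.90 in WT and from 3.75 to 4.82 in KO, with 6 of 7 KO mice above all WT mice (difference 0.51, SE 0.16, adjusted p = 0.0658, or 0.0208 without KO replicate 6). Samd9l, a growth restrictor, differed by 0.45 (interval from -0.05 to 0.94), and Mx2, which the mm10 annotation lists as a polymorphic pseudogene, by 0.61 (interval from -0.15 to 1.37) at mean levels below 0 log2 CPM in both groups.

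Of the 6 other induced genes without a shared role, Xaf1 and Rtp4 were called, where 4.84% of all genes were called higher. Neither overlapped between groups, where 2.69% of all genes had every KO library above every WT library. Xaf1, an antagonist of an inhibitor of apoptosis, had 0.47, 0.29, 0.40, 0.35 and 0.10 log2 CPM in WT replicates 1 to 5 and 0.66, 1.30 and 2.05 as lowest, median and highest KO values. Its difference was 0.90 (SE 0.22, adjusted p = 0.0205, or 0.0513 without WT replicate 5). Rtp4, a chaperone of membrane receptors, had 0.67, 1.03, 0.95, 1.00 and 0.77 in WT and 1.16, 1.96 and 2.93 as lowest, median and highest KO values. Its difference was 1.09 (SE 0.30, adjusted p = 0.0366). That call ended without any WT replicate or without KO replicate 1, 3 or 4 (adjusted p from 0.0505 to 0.0907), and Rtp4 is not past the threshold in the authors' deposited table (adjusted p 0.0564).

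In all, 4 of the 45 genes, Irf7, Oas1a, Xaf1 and Rtp4, had every KO library above every WT library (8.89%), while 2.69% of all genes did. Ifi27, a small protein of mitochondrial and nuclear membranes, had 4.44, 4.77, 4.62, 4.86 and 4.59 in WT and 4.66, 5.04 and 5.45 as lowest, median and highest KO values, and 5 of 7 KO mice lay above all WT mice. Its difference was 0.43 (SE 0.13, adjusted p = 0.0533, or 0.0163 without KO replicate 6 and 0.0473 without KO replicate 7). Ifi44 differed by 1.21 (SE 0.38, adjusted p = 0.0620) with a WT range from 0.16 to 1.57. Lgals3bp, a secreted galectin-binding glycoprotein, differed by 0.60 (SE 0.23, adjusted p = 0.123, or 0.0460 without KO replicate 6). Ifi35 had 4.16 log2 CPM in both groups and an interval from -0.20 to 0.19. The ADP-ribosyltransferases Parp9 and Parp14 and the ubiquitin ligase Dtx3l, which pairs with Parp9, lie within 139.7 kb on chromosome 16. They differed by 0.22, 0.33 and 0.30, none was called, and the exons of Parp9 and Dtx3l overlap on opposite strands.

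**Figure D2:**
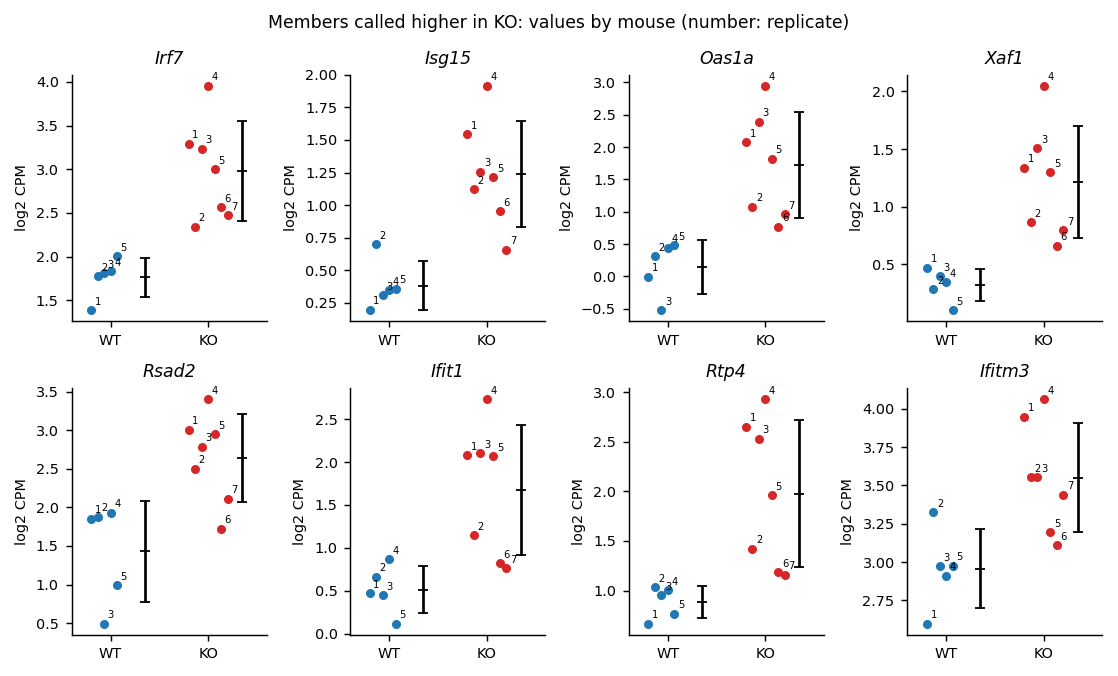
Log2 CPM of the 8 called genes in each mouse (blue WT, red KO; numbers are replicates; bars are mean ± SD, 5 WT and 7 KO). KO replicate 4 is the highest point in each panel, and KO replicates 2, 6 and 7 lie nearest to the WT mice in most of them.

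The GTPases and the immunoproteasome, the genes best known for induction by interferon gamma, had 0 of 9 called, where 4.84% of all genes were called higher. At that share 9 genes are too few for a count of 0 to set them apart from other genes. All 6 GTPases were measured. The guanylate-binding proteins Gbp2, Gbp3 and Gbp7, which attack the vacuoles of microbes, lie within 107.7 kb on chromosome 3 but had different patterns. Gbp2 had 1.93, 1.85, 2.02, 4.41 and 2.03 log2 CPM in WT replicates 1 to 5, and 2.00, 2.49 and 3.77 as lowest, median and highest KO values. WT replicate 4 was the highest of all 12 libraries for Gbp2. The difference was 0.16 (SE 0.45, adjusted p = 0.853), its interval from -0.82 to 1.15 allows a change of either sign, and it was 0.66 without WT replicate 4. Gbp3 had 2.04, 2.19, 2.03, 2.80 and 2.03 in WT and 2.37, 3.07 and 4.40 as lowest, median and highest KO values, with 5 of 7 KO mice above all WT mice. Its difference was 0.93 (SE 0.31, adjusted p = 0.0757, or 0.0404 without KO replicate 6 and 0.0455 without KO replicate 7). Without WT replicate 4 and KO replicate 4 together Gbp3 was called as well (adjusted p = 0.0316).

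Igtp, Irgm1 and Ifi47 encode immunity-related GTPases that act on vacuoles of microbes. Igtp had 2.86, 2.82, 2.58, 4.54 and 2.58 log2 CPM in WT replicates 1 to 5, so that replicate 4 again stood alone, and 2.45, 2.77 and 3.83 as lowest, median and highest KO values. Its difference was -0.17 (interval from -0.91 to 0.58) and turned to 0.20 without WT replicate 4, with neither called. Irgm1 differed by 0.10 (interval from -0.39 to 0.60) and Ifi47, whose exons overlap Olfr56 on the same strand, by 0.31 (interval from -0.46 to 1.08). The immunoproteasome subunits Psmb8, Psmb9 and Psmb10, which replace the standard catalytic subunits when peptides are cut for MHC class I, differed by 0.43, 0.34 and 0.20 and were not called. Psmb8 had 1.54, 2.14, 1.83, 2.83 and 2.28 in WT and 1.89, 2.31 and 4.30 in KO, and KO replicate 4 alone lay above the highest WT mouse. Psmb9 and Psmb8 lie within 19.5 kb on chromosome 17, where exons of Psmb9 overlap Tap1 on the opposite strand. Of the standard subunits Psmb5, Psmb6 and Psmb7, Psmb6 rose by 0.27 (SE 0.07, adjusted p = 0.0250). It was no longer called with WT replicate 1 left out (0.0726), nor with replicate 3 (0.0602) or 5 (0.0549) of that genotype, without both libraries numbered 4 (0.0581) or with day 10 libraries alone (0.0613).

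**Figure D3:**
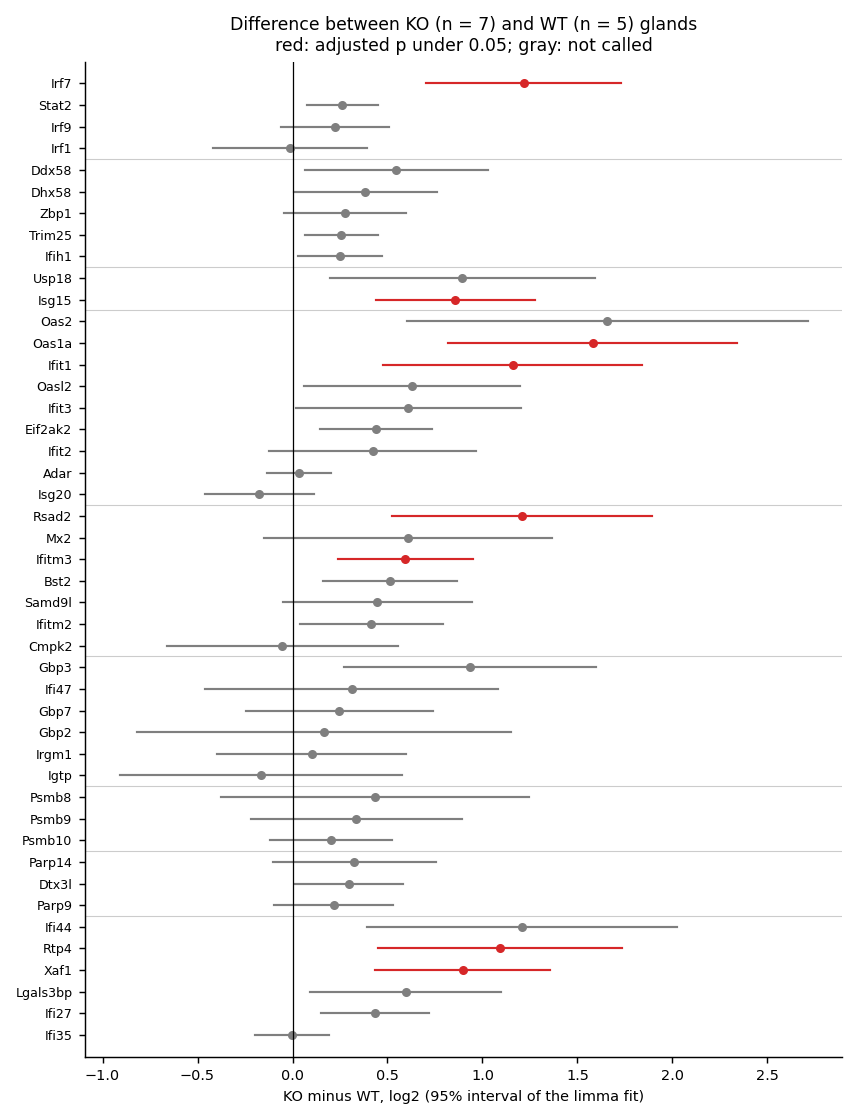
Difference between KO and WT for each of the 45 genes on the log2 scale (point) with the 95% interval of the limma fit (line), grouped by role in the order of the heat map. Red marks the 8 genes called. The intervals of Gbp2, Igtp and Psmb8 reach far to both sides of 0.

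The mice themselves differed in how strongly the genes were expressed. KO replicate 4 was the highest of the 12 libraries for 33 of the 45 genes and WT replicate 4 for 4 of them. Above all WT mice lay 36 genes in KO replicate 4, 32 in replicate 1, 27 in replicate 3, 26 in replicate 5, 19 in replicate 2, 10 in replicate 6 and 8 in replicate 7. The shares over all genes were not computed for single libraries. These counts therefore do not show how far the set differs from other genes of the same library. The SD between KO mice was larger than between WT mice for 30 of the 45 genes (66.7%), near the 63.1% over all genes, and the median ratio of the SDs was 1.73 against 1.18.

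The GTPases, the immunoproteasome and Irf1, 10 genes joined after their values were seen and therefore not tested, separated the mice in another way from the other 35. For these 10 the median of log2 CPM minus the WT mean was 0.79 in WT replicate 4 and 1.15 in KO replicate 4, and it lay between -0.36 and 0.34 in the other 10 libraries of either genotype. WT replicate 4 was the highest WT library for all 10. For the other 35 genes the same median was 0.15 in WT replicate 4, while it was 1.16, 0.75, 0.73 and 0.50 in KO replicates 4, 1, 3 and 5 and 0.27, 0.19 and 0.17 in KO replicates 2, 7 and 6. Over all 45 genes it was 0.30 in WT replicate 4, above 0.23, 0.15 and 0.13 in KO replicates 2, 7 and 6. That WT replicate 4 lay below every KO mouse for the 35 thus rests on the split. The median KO minus WT difference was 0.22 for the 10 genes and 0.45 for the 35. Without WT replicate 4 these medians were 0.48 and 0.55. Without KO replicate 4 they were 0.11 and 0.38. With both left out they were 0.29 and 0.43, and with day 10 libraries alone -0.11 and 0.31.

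**Figure D4:**
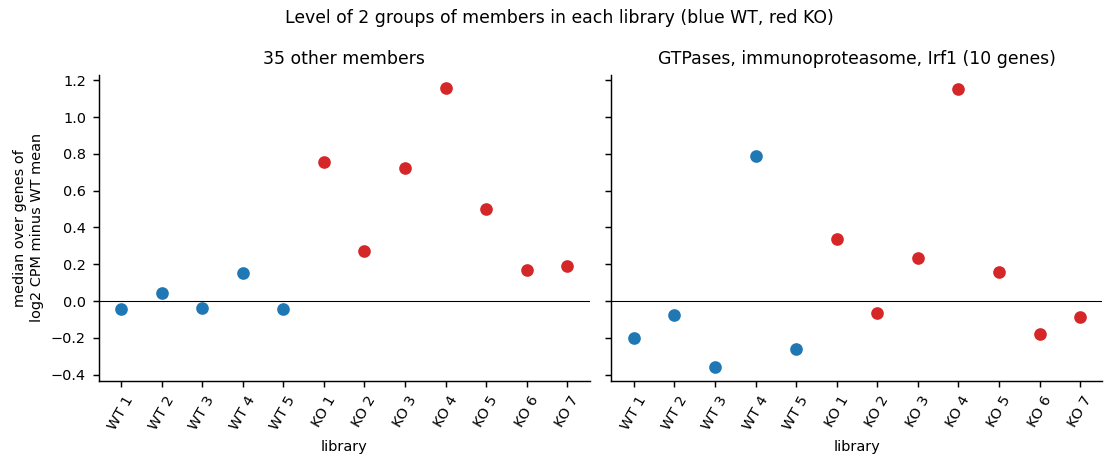
Median over genes of log2 CPM minus the WT mean in each library, for the 35 other genes (left) and for the 10 genes of the GTPases, the immunoproteasome and Irf1 (right). On the left all 7 KO libraries lie above the 5 WT libraries, by little for KO replicate 6 (0.17) against WT replicate 4 (0.15). The 2 groups of genes were formed after the values were seen, so this separation is not evidence. Over all 45 genes WT replicate 4 (0.30) lies above KO replicates 2, 7 and 6. On the right WT replicate 4 (0.79) and KO replicate 4 (1.15) stand above the other 10 libraries.

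Of the pathway genes outside the list, 3 receptor subunits were higher in KO glands. None of the 14 interferon genes on a list of ligands was analysed here. Of the 6 receptor subunits, 3 rose and 0 fell, where 4.84% of all genes rose and 4.52% fell. Ifngr2, the signalling chain of the interferon gamma receptor, had 2.80, 2.83, 3.02, 3.40 and 2.97 log2 CPM in WT and 3.42, 3.66 and 4.01 as lowest, median and highest KO values, a difference of 0.67 (SE 0.12, adjusted p = 0.00485). Ifnlr1, the specific chain of the interferon lambda receptor, which epithelial cells carry, ran from -0.07 to 0.65 in WT and from 0.80 to 1.83 in KO, a difference of 0.90 (SE 0.20, adjusted p = 0.0147). Il10rb, its partner chain, which other cytokine receptors share, ran from 3.10 to 3.20 in WT and from 3.40 to 3.72 in KO, a difference of 0.36 (SE 0.08, adjusted p = 0.0115). In all 3, every KO mouse lay above every WT mouse, as for 2.69% of all genes, and each stayed called whichever library was left out (adjusted p up to 0.0444), though none was called with day 10 libraries alone (adjusted p from 0.0604 to 0.0770).

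Ifngr1, the ligand-binding chain of the interferon gamma receptor, differed in the other direction from Ifngr2, by -0.32 (SE 0.11, adjusted p = 0.0711, or 0.0434 without KO replicate 6). The type I receptor chains Ifnar1 and Ifnar2 differed by 0.18 (interval from -0.04 to 0.40) and 0.21 (interval from 0.03 to 0.38; adjusted p = 0.123). Of 9 measured genes of receptor signalling 0 rose and 1 fell, where 4.84% of all genes rose and 4.52% fell. Pias1, a SUMO ligase that restrains interferon signalling, had a log2 difference of -0.37 (SE 0.10, adjusted p = 0.0321), with each KO mouse below each WT mouse, as for 2.74% of all genes. The Pias1 call was lost with any 1 of WT replicates 1 (0.0916), 2 (0.0562) and 4 (0.0776) or KO replicate 2 (0.0628) left out, without both libraries numbered 4 (0.0904) and with day 10 libraries alone (0.0995). Of 19 measured sensing adaptors, kinases and other Irf factors, 1 rose (5.26%) and 0 fell. The share that rose was near the 4.84% over all genes. Myd88, an adaptor of Toll-like and interleukin-1 receptors, rose by 0.61 (SE 0.15, adjusted p = 0.0210). This call was lost when WT replicate 1 (0.0624) or 2 (0.0552) was left out and with day 10 libraries alone (0.135).

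**Figure D5:**
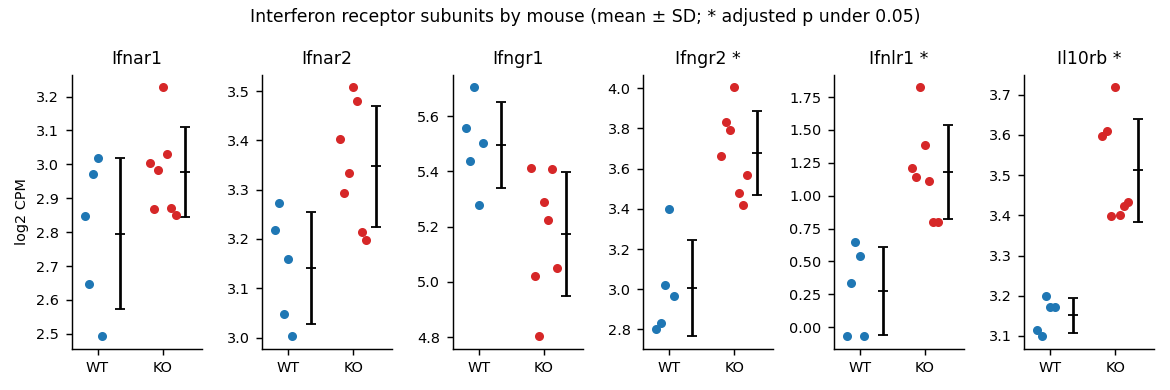
Log2 CPM of the 6 interferon receptor subunits in each mouse (blue 5 WT, red 7 KO; bars are mean ± SD; axes do not start at 0). The KO points of Ifngr2, Ifnlr1 and Il10rb all lie above the WT points, and 4 of 7 KO points of Ifngr1 lie below its WT points.

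Some markers of other cells differed between the genotypes as well. Of 14 macrophage markers, all measured and none at 0, 4 rose, 0 fell and 10 were not called, where 4.84% of all genes rose. They were Cx3cr1 (difference 0.70, adjusted p = 0.0193), C1qb (0.46, adjusted p = 0.0201), Cd68 (0.50, adjusted p = 0.0234) and C1qa (0.47, adjusted p = 0.0344). Each of these calls ended on leaving out at least 1 library, with adjusted p up to 0.0942: Cx3cr1 without WT replicate 3 (0.0504), C1qb without WT replicate 1 or 3 (up to 0.0595), Cd68 without WT replicate 1 or 5 (up to 0.0610) and C1qa without any library but WT replicate 4 and KO replicates 6 and 7. With day 10 libraries alone none of the 4 was called (adjusted p from 0.0954 to 0.274). The CPM sum of the macrophage list ran from 117 to 154 in WT and from 132 to 243 in KO. In KO replicate 2, which had the highest sum, Cd14 alone gave 98.1 of 243 CPM, against 28.4 of 227 CPM in KO replicate 4. Without Cd14, left out after its values were seen, the sum was 198, 165, 162, 148, 145, 124 and 108 CPM in KO replicates 4, 1, 3, 5, 2, 7 and 6, and from 89.1 to 126 CPM in WT. The medians of the 45 interferon-stimulated genes put the 7 KO mice in that same order. The order did not hold across the genotypes. WT replicate 5 had 126 CPM without Cd14, above KO replicates 7 and 6. Its median of the 45 genes was -0.07, below 0.15 and 0.13 in those KO mice. The medians of the KO mice did not follow the full list, whose sum was 243, 233, 227, 202, 183, 154 and 132 CPM in KO replicates 2, 3, 4, 1, 5, 7 and 6. The shared order depends on leaving out Cd14 after its values were seen, so it is not independent evidence. The part of macrophages in the differences was not tested.

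Of 8 skeletal muscle markers 0 were called, but their CPM sum ran from 63.3 to 449 in WT and from 92.9 to 1523 in KO. The highest sum was that of KO replicate 4 and the lowest KO sum that of KO replicate 6, the libraries with the highest and the lowest median of the 45 genes among KO mice. In WT replicate 4 the sum was 449, the highest of the WT mice. WT replicate 3 was near it at 422, though its median of the 45 genes was -0.10, against 0.30 in WT replicate 4. KO replicate 7 had 452, above 440 in KO replicate 3 and 395 in KO replicate 2. Its median (0.15) was below theirs (0.47 and 0.23), so the 2 orders were not the same. Of 8 basal and myoepithelial markers 4 rose, of 6 adipocyte markers 1 rose and of 8 luminal secretory markers 1 rose, where 4.84% of all genes did. The 1 luminal marker that fell was Btn1a1 itself. Of 7 endothelial markers 1 fell, where 4.52% of all genes did. B and plasma cell markers had 0 of 4 measured called, and of 5 plasmacytoid dendritic cell markers only Tcf4 was measured (difference -0.02, not called). T and NK cell markers and neutrophil markers were not analysed here. The part of these cells was not tested.

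The acute-phase gene Saa2, chosen after its values were seen, was set beside these genes library by library. Saa2 stood at 9.21, 10.86, 8.66 and 10.75 log2 CPM in KO replicates 1 to 4, at 5.48, 3.15 and 2.14 in KO replicates 5 to 7, and at no more than 0.45 in WT. KO replicate 2 had the highest Saa2 level, yet its median over the 45 genes (0.23) was below that of KO replicate 5 (0.41). KO replicates 6 and 7, lowest of the KO mice in Saa2, also had the lowest medians (0.13 and 0.15).

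By position the 45 genes were spread over 14 chromosomes, and 22 lay within 1 Mb of another gene of the list, in 9 clusters. Neighbours did not always move alike. In the chromosome 5 cluster Oas2 and Oas1a differed by 1.66 and 1.58. In the chromosome 19 cluster of 3 genes Ifit1 differed by 1.16 and was called, while Ifit2 and Ifit3 differed by 0.42 and 0.61 and were not. The chromosome 7 cluster held Irf7 and Ifitm3, both called, and Ifitm2. Differences between neighbours were not tested.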

How the data were processed

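Per the submitters' processing notes, limma 3.34.5, RSEM 1.3.0, STAR 2.5.2b, Trimmomatic 0.33 and bcl2fastq 2.17 were used, and the builds mm10 and hg19 are named without their roles. No source used here names the annotation or the gene filter. Deposited by the authors were log2 CPM values for each library, with their own log2 fold change, p-value and adjusted p-value. The libraries had nearly the same distribution of values (67.1% of ranks within 0.01 log2), so the deposited log2 values were already quantile-normalized, which limits differences between libraries in overall level. Read counts were not used.

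The log2 values of all 11834 genes were fitted by genotype with limma 3.58.1 in R 4.3.3 (eBayes with trend and robust), with Benjamini-Hochberg adjustment of the p-values (two-sided) across the whole table. Genes with an adjusted p below 0.05 are termed called. Each mouse gave 1 library, so replicates are mice. The values are already on the log2 scale, so no pseudocount was added. On simulated data of the same size (KO against WT, 11834 genes), 78 of 100 genes changed by 1 log2 and 46 of 100 changed by 0.5 were recovered, with 5 false calls. The simulation drew each gene independently, with the same SD in both genotypes. The 45 genes had a median ratio of KO to WT SD of 1.73, so these rates may not hold for them. Depth is a rough estimate, read from the spacing of low values that at least 8 genes share. Positions are from GENCODE M21 (mm10), matched by symbol for all 45 genes, and promoters from RefSeq (GRCm38.p6). Python 3.11.15 was used for annotation and figures.

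The genes and all lists were chosen with earlier results of these data known. Every gene of the set could be named. Library values are given for called genes and the 3 uncalled genes of smallest adjusted p, and for some others whose pattern was described after their values were seen (Gbp2, Gbp3, Igtp, Psmb8, Ddx58, Bst2 and Saa2). Of the pathway lists the called genes and the receptors were named, and of the macrophage list the called genes. A further gene under this rule is not reported here. Alternatives were a replicate block, day 10 libraries alone, a term for lactation day, eBayes without options, library weights, a stricter filter, cyclic loess, median centring, leaving out each library and the authors' statistics. Leaving out both libraries numbered 4 was chosen after seeing the data.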

Additional observations from a re-analysis of the deposited data

Results flagged for a closer look

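In groups of 5 WT or 7 KO values, a library far from its group was sought by Dixon's ratio, the gap to the nearest other value over the whole range. Of 90 groups (45 genes in 2 genotypes), 9 held such a library, where chance alone flags about 1 in 20. WT replicate 4 was the high library in 5 of them, all GTPase genes. The ratio was 0.931 for Gbp2 (4.41 log2 CPM, with the next WT mouse at 2.03), 0.853 for Igtp (4.54, next 2.86), 0.797 for Gbp3 (2.80, next 2.19), 0.766 for Irgm1 (4.26, next 3.22) and 0.717 for Ifi47 (3.14, next 1.84). In KO, Psmb8 was flagged for KO replicate 4 (ratio 0.646, at 4.30 with the next KO mouse at 2.75). Low WT libraries were flagged for Ifih1 (ratio 0.813, replicate 5 at 3.48), Oas2 (ratio 0.779, replicate 1 at -0.59) and Ifitm2 (ratio 0.761, replicate 1 at 2.47). WT replicate 4 was taken on day 10 and KO replicate 4 on day 11, and both had the highest skeletal muscle sum of their genotype. In WT that lead was small, at 449 CPM against 422 CPM in WT replicate 3, which was not flagged. The causes were not tested.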

How the results depend on the processing

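The number of genes of the set called higher was 8, and 1 with day 10 libraries alone. It ran from 3 to 14 when 1 library was left out, and no gene of the set was called lower under any setting tried. With the replicate number as a block it was 20 (4.93% of all genes), with 8 of 8 genes kept, while Cd68 (adjusted p = 0.0573), Myd88 (0.0746), Pias1 (0.0752) and Psmb6 (0.0612) were no longer called. KO replicates 6 and 7 have no WT library of their number, so the block fit takes its difference from KO replicates 1 to 5 alone. These 2 mice had the lowest medians of the set in KO (0.13 and 0.15). The rise to 20 cannot be told apart from leaving them out. The replicate numbers showed no clear pairing of the mice: the correlation of same-numbered deviations ran from -0.17 to 0.21 over 5 pairs. It was best for the own number in 1 of 5, the pair of replicate 4 (0.21). Whether any numbers pair mice is not known from these values. The median difference stayed above 0 under every setting, from 0.21 to 0.55. Over all genes, 573 were called higher and 535 lower. Day 10 libraries alone gave 164 and 104, leaving out both libraries numbered 4 gave 369 and 319, and leaving out 1 library gave 316 to 670 and 243 to 657. These fits hold fewer libraries, and the causes of the changed counts were not tested. Signs turned for 11 genes, none of them called in the fit by genotype alone. Parp9 was called with the replicate block, where its sign was kept (0.36, adjusted p = 0.0428 by limma). With day 10 alone the signs that turned were those of Gbp2 (-0.39), Irgm1 (-0.19), Ifi47 (-0.16), Psmb9 (-0.072), Gbp7 (-0.059), Parp9 (-0.0099) and Ifi35 (0.066). Irf1 turned to 0.018 with the replicate block, 0.029 with library weights, 0.0076 with cyclic loess, 0.066 without both libraries numbered 4 and 0.0021 in the authors' deposited table. Leaving out 1 library gave it values from -0.15 to 0.15. Cmpk2 turned to 0.097 with the replicate block and 0.057 without both libraries numbered 4, and ran from -0.19 to 0.12 without 1 library. Ifi35 turned to 0.0090 with the day covariate, 0.027 with library weights and 0.010 with cyclic loess, and ran from -0.040 to 0.042 without 1 library. Igtp turned to 0.046 without both libraries numbered 4. Without 1 library, Igtp ran from -0.32 to 0.20, Gbp2 from -0.029 to 0.66, Irgm1 from -0.0014 to 0.34 and Adar from -0.0040 to 0.084. Depth is estimated only, so low genes such as Mx2 carry an error that cannot be given in reads.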
